A study of Mus musculus with 6 samples.

Results

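Cathepsins and cystatins are the proteases of the lysosome and their inhibitors, and 10 mouse genes of these families (Ctsa, Ctsb, Ctsc, Ctsd, Ctsl, Ctss, Ctsw, Ctsz, Cst3 and Cst7) were chosen by symbol from the deposited expression table. Of the 10, 9 were matched by NCBI gene number among the 8520 genes of the table, and Ctsl is not analysed here. RNA was sequenced from 2 populations of natural killer (NK) cells of the spleen, with 3 libraries each. Ly49G+ cells were sorted as CD3-negative, NK1.1-positive, Ly49G-positive and Ly49C/I-negative, and Ly49I+ cells as CD3-negative, NK1.1-positive, Ly49G-negative and Ly49C/I-positive. Both came from untreated C57BL/6Ncr mice of 6 to 8 weeks, and the protocol names 20 spleens without saying how many fed each library. The antibody 5E6 used for the second receptor binds Ly49C as well as Ly49I, so this gate does not separate carriers of Ly49I from carriers of Ly49C. The comparison asks how transcription differs between cells that carry one or the other of these receptors for MHC class I.

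Cathepsins are made as inactive precursors, tagged in the Golgi and delivered to lysosomes, where acid activates them. In cytotoxic lymphocytes the lytic granule is a modified lysosome, and cathepsin C trims the granzyme precursors there into active enzymes. Cystatins are small proteins that block the active site of cysteine cathepsins, and cystatin F, the product of Cst7, acts within the granules themselves. Macrophages and dendritic cells carry large amounts of cathepsins B, S and Z and of cystatin C, the product of Cst3.

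Library totals ran from 33599679 to 40892154 reads, and the deposited values are log2 CPM, where CPM is the count of a gene's reads per 1000000 library reads. The sorted receptors followed the labels. Klra7, which encodes Ly49G, stood between 917 and 1037 CPM in Ly49G+ libraries and between 10.8 and 11.7 CPM in Ly49I+ libraries. Klra9, which encodes Ly49I, stood between 74.1 and 84.1 CPM in Ly49G+ and between 990.2 and 1194 CPM in Ly49I+ libraries. All 13 listed NK markers were measured, and the lowest of them stood between 103 and 129 CPM in the 6 libraries. In the monocyte and macrophage marker list 15 of 26 genes were measured, none of them at 0. Of the 15, 13 passed as lower in Ly49G+ at a limma adjusted p of 0.05, where 1.77% of all genes did. Of those 13, 11 reached 10 CPM in at least 2 libraries through Ly49I+ alone, which fixed their direction, and Lyz2 and Ly6c2 did so in both groups. Over those 13 the median level was 1.15, 1.73 and 3.07 CPM in Ly49G+ replicates 1, 2 and 3 and 22.4, 85.0 and 19.0 CPM in Ly49I+ replicates 1, 2 and 3, so that Ly49I+ replicate 2 stood apart. Every listed gene of the table reached 10 CPM in at least 2 libraries. Of the 9 measured members only Cst3 lay below that level in any library, and it reached it in Ly49I+ replicates 2 and 3 alone. A gene admitted in that way had to be higher in Ly49I+ cells, so counts of members are given with and without Cst3.

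Ctsw and Ctsd stood among the more abundant messages of these cells, while Cst3 and Ctsz were the lowest of the 9 and near the middle of the table. Levels between genes are compared as CPM per kb of exonic length, averaged over the 6 libraries. Ctsw, which encodes the lymphocyte protease cathepsin W, stood at 555 CPM per kb and Ctsd, the gene of the aspartic protease cathepsin D, at 554, both above 99.4% of the 8302 genes with a length. The order continued with Cst7 at 172, Ctsc at 66.1, Ctsa at 50.2, Ctss at 42.3, Ctsb at 30.8, Ctsz at 14.7 and Cst3 at 12.1 CPM per kb. Ctsz stood above 47.4% and Cst3 above 40.1% of those genes. Ctsw and Ctsd did not differ beyond their spread, at 547 ± 42.7 and 500 ± 20.1 CPM per kb in Ly49G+ and at 562 ± 36.0 and 609 ± 63.7 in Ly49I+ libraries (SD, n = 3 each). In Ly49I+ libraries the spreads of Ctsa (53.2 ± 5.28), Ctss (49.8 ± 25.2) and Ctsb (38.6 ± 16.1) overlapped, as did those of Ctsz (17.4 ± 4.43) and Cst3 (15.6 ± 5.68). Together the 9 genes took 0.235%, 0.252% and 0.251% of the reads in Ly49G+ replicates 1, 2 and 3, and 0.256%, 0.308% and 0.298% in Ly49I+ replicates 1, 2 and 3.

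None of the measured members passed the test between the populations, although the estimates of the 9 lay below 0, on the side of lower RNA in Ly49G+ cells, as did those of 53.5% of all genes. At a limma adjusted p of 0.05 the count was 0 of 9, where 3.59% of all genes were called, 1.77% as lower in Ly49G+. Before adjustment, 5 of 9 had p under 0.05, all lower in Ly49G+, where 10.2% of all genes did so in that direction and 19.8% in either. In 4 of 9 (Ctsb, Ctsc, Ctsd and Ctsz) every Ly49G+ library lay below every Ly49I+ library, which held for 13.4% of all genes, and 25.8% were separated in either direction. Across genes, deviations of libraries with the same replicate number correlated at 0.371, 0.114 and 0.156. Ly49G+ replicate 3 correlated more with Ly49I+ replicate 2 (0.359), so pairing by number is an assumption. With the replicate number as a block in the model 4 of 9 passed as lower in Ly49G+, namely Ctsb, Ctsd, Ctsz and Cst3. In that fit 5.96% of all genes passed in that direction and 11.7% in either. The same 4 passed without Ly49I+ replicate 1, where 4.07% of all genes passed in that direction and 7.56% in either. Without Cst3 the counts were 0 of 8, 4 of 8 before adjustment, 3 of 8 with the block and 3 of 8 without Ly49I+ replicate 1. Leaving Ly49I+ replicate 2 out of the blocked model, a fit chosen after the values were seen, gave 0 of 9, with Ctsb nearest at a limma adjusted p of 0.05003, where 3.29% of all genes were called, 1.53% as lower in Ly49G+.

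**Figure D1:**
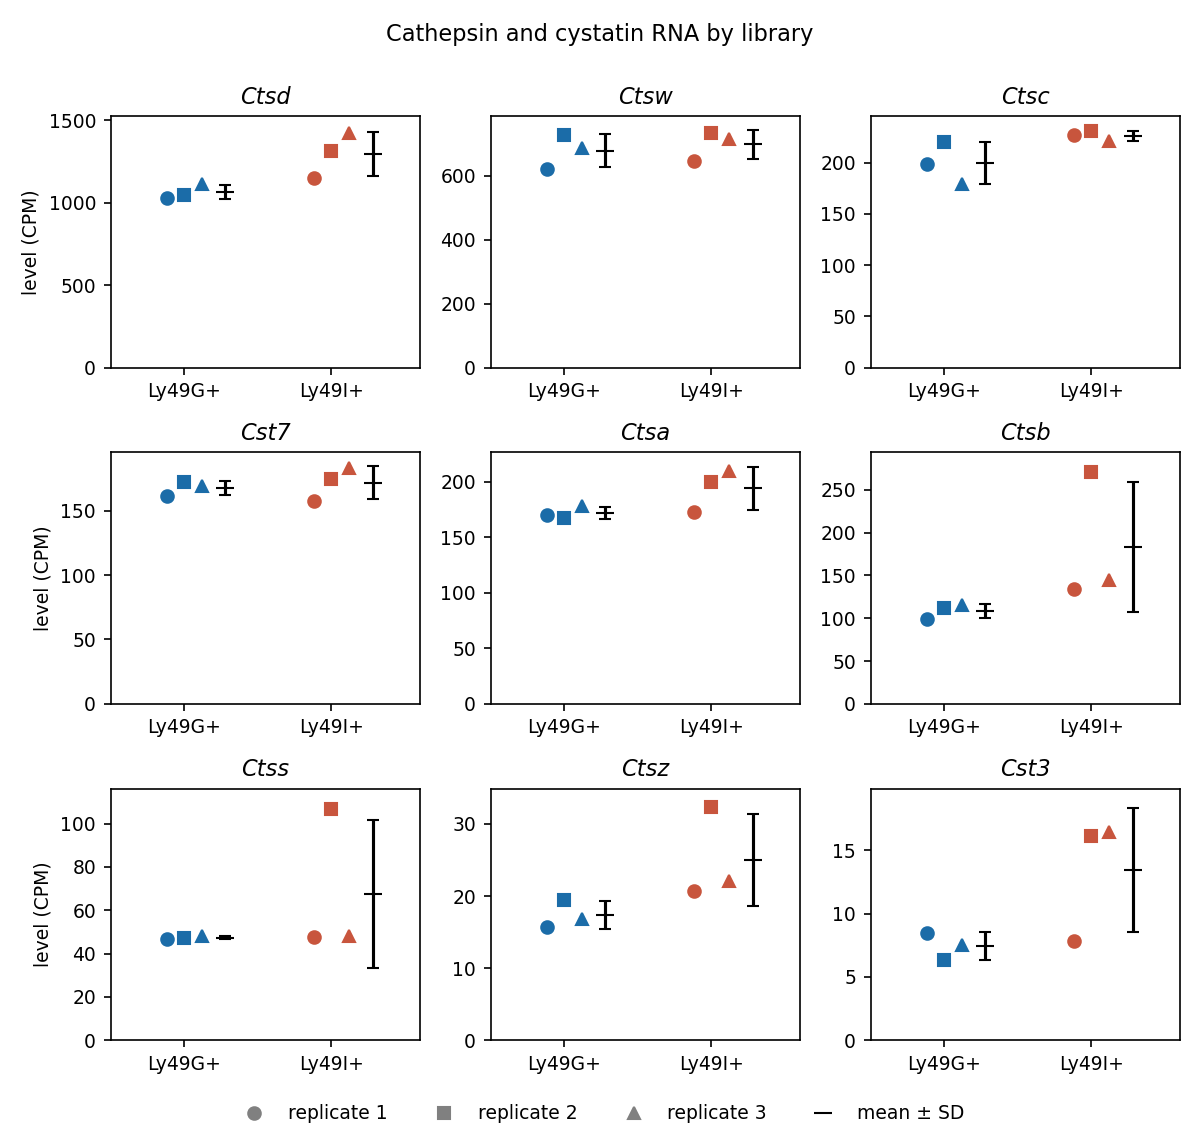
Level in CPM of the 9 measured genes in each library, with Ly49G+ libraries on the left (blue) and Ly49I+ libraries on the right (red), the replicate number given by the symbol, and the mean ± SD (n = 3) beside each group. Ly49I+ replicate 2 lies far above the other libraries in Ctsb (271 CPM) and Ctss (107 CPM), and both Ly49I+ replicates 2 and 3 do so in Cst3 (16.1 and 16.4 CPM).

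Ctsw and Cst7 had the smallest differences of the 9, and Ctsc was slightly lower in every Ly49G+ library. Ctsc (gene 13032, GRCm38.p6 chromosome 7, 88278024 to 88315861) encodes the granzyme-activating dipeptidyl peptidase and had 199, 220.0 and 179 CPM in Ly49G+ replicates 1, 2 and 3, against 227, 231 and 221 CPM in the Ly49I+ replicates. The groups did not overlap, but Ly49G+ replicate 2 lay close under Ly49I+ replicate 3. The log2 difference of Ly49G+ minus Ly49I+ was -0.19 ± 0.084 (SE, limma adjusted p = 0.252), with a 95% interval that reached from -0.37 to just below 0. Ctsw (gene 13041, chromosome 19, 5465043 to 5468628) had 622, 727 and 687 CPM in Ly49G+ and 647, 732 and 714 CPM in Ly49I+ replicates, and in both groups replicate 1 was lowest and replicate 2 highest. Its log2 difference was -0.040 ± 0.083 (limma adjusted p = 0.811), and the 95% interval from -0.22 to 0.14 leaves a level in Ly49I+ of 0.905 to 1.17 times that in Ly49G+ cells. Cst7 (gene 13011, chromosome 2, 150570415 to 150578944) had 161, 172 and 169 CPM in Ly49G+ and 158, 175 and 183 CPM in Ly49I+ replicates, so the groups overlapped. Its log2 difference was -0.032 ± 0.078 (95% interval -0.20 to 0.14, limma adjusted p = 0.838). Per length, the inhibitor Cst7 stood above its known target Ctsc in both groups, at 170 ± 5.56 against 61.9 ± 6.32 CPM per kb in Ly49G+ and at 174 ± 13.03 against 70.2 ± 1.53 CPM per kb in Ly49I+ libraries (SD, n = 3 each). Before division by length Ctsc had the higher mean CPM in both groups. The order thus rests on the lengths used, 986 bases for Cst7 and 3220 bases for Ctsc.

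The granzymes that cathepsin C trims and the pore protein perforin were in part lower in Ly49G+ cells. Of 4 measured genes in the list of granzymes, perforin and the granule proteoglycan serglycin, 2 were lower in Ly49G+ and 2 did not pass. Over all genes 1.77% were called as lower in Ly49G+. Gzmb, which encodes granzyme B, averaged 588 ± 21.6 CPM in Ly49G+ and 817 ± 45.5 CPM in Ly49I+ libraries (SD, n = 3 each, log2 difference -0.47, limma adjusted p = 0.00585), and it missed the threshold without Ly49G+ replicate 2 (adjusted p = 0.0569). Prf1, the perforin gene, averaged 792 ± 47.9 CPM in Ly49G+ and 1120 ± 162 CPM in Ly49I+ libraries (log2 difference -0.49, limma adjusted p = 0.0253). Prf1 missed the threshold without any one Ly49G+ library, at adjusted p = 0.113, 0.168 and 0.0633 without replicates 1, 2 and 3, without Ly49I+ replicate 2 (0.0540) and without the intensity trend (0.0691). Gzma stood at 3701 ± 181 CPM in Ly49G+ and 4148 ± 292 CPM in Ly49I+ libraries and did not pass (limma adjusted p = 0.315). The serglycin gene Srgn, with a log2 difference of 0.32, did not pass either (limma adjusted p = 0.192), but passed as higher in Ly49G+ with the replicate block (0.0137).

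Among the general lysosomal enzymes, Ctsd gave the most even difference. Ctsd (gene 13033, chromosome 7, 142375910 to 142387827) encodes the main aspartic protease of lysosomes and had 1031, 1046 and 1112 CPM in Ly49G+ against 1151, 1316 and 1420 CPM in Ly49I+ replicates 1, 2 and 3, without overlap. The log2 difference was -0.28 ± 0.088 (95% interval -0.48 to -0.086), a level 1.22 times as high in Ly49I+ cells, with a limma adjusted p of 0.113, and 0.0176 with the replicate block. Ctsd was highest in Ly49I+ replicate 3, and the log2 difference without Ly49I+ replicate 2 was -0.27. Of the 100-base windows in Ctsd transcripts, 30.2% also occur in the overlapping gene Gm49369 on the same strand, and the sources used here do not say how shared reads were counted. Ctsa (gene 19025, chromosome 2, 164832872 to 164841032) encodes a serine carboxypeptidase that also shields lysosomal neuraminidase and beta-galactosidase from decay. It had 170, 168 and 178 CPM in Ly49G+ and 172, 200 and 209.6 CPM in Ly49I+ replicates, an overlap through Ly49I+ replicate 1, with a log2 difference of -0.17 ± 0.085 (95% interval -0.36 to 0.018, limma adjusted p = 0.293).

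The start regions of Ctsd and Ctsa are shown because, of the 7 measured members with a promoter in the RefSeq table of GRCm38.p6, they alone hold the core TCACGTGA of the CLEAR element, the sequence by which the factor TFEB is known to address lysosomal genes. Both stretches end at the base before the RefSeq start site and run 5′ to 3′ on the gene's strand, with TCACGTGA in capitals. The Ctsd stretch is chr7:142387828-142387977 on the minus strand, and the Ctsa stretch, before the second of its 2 listed starts and so inside the annotated gene, is chr2:164833623-164833772 on the plus strand.
Ctsd: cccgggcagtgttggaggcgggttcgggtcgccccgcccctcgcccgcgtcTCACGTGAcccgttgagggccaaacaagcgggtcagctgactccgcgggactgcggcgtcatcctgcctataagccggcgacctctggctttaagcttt
Ctsa: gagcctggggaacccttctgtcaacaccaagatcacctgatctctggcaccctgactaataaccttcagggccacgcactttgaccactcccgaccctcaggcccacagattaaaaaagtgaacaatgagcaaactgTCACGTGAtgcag
The promoters searched reach from 250 bases before to 50 bases after the start, on both strands. TCACGTGA was found in 2 of the 7 genes, against 2.63% of the 6842 table genes with a promoter and 0.974% of all 32851 promoters. The shorter E-box CACGTG, which lies within TCACGTGA, was found in the same 2 genes and in 12.1% of the table genes. GAGGAA, the core bound by the myeloid factor PU.1, was found in Ctsc, Ctss and Cst3, that is in 3 of 7, against 30.7% of the table genes. Ctsb and Ctsw were not matched in the promoter table. A match is a description of letters and does not show that a factor binds there.

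Ctsb, Ctss and Ctsz were highest in Ly49I+ replicate 2, at 1.95, 2.24 and 1.51 times the mean of the other 2 Ly49I+ libraries. Ctsc and Ctsw were also highest in that library, but at only 1.03 and 1.08 times that mean. Cst3 was high in Ly49I+ replicates 2 and 3. Ctsb (gene 13030, chromosome 14, 63122462 to 63145923) encodes a cysteine protease of lysosomes and had 99.6, 111 and 115 CPM in Ly49G+ against 134, 271 and 145 CPM in Ly49I+ replicates 1, 2 and 3. All Ly49I+ libraries lay above all Ly49G+ libraries, and Ly49I+ replicate 2 was 1.95 times the mean of the other 2 Ly49I+ libraries. The log2 difference was -0.68 ± 0.21 (95% interval -1.15 to -0.20, limma adjusted p = 0.115, and 0.00518 with the replicate block), and -0.36 without Ly49I+ replicate 2 (limma adjusted p = 0.0996).

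Ctss (gene 13040, chromosome 3, 95526786 to 95556405) encodes the protease that degrades the invariant chain of MHC class II in antigen-presenting cells. It had 46.6, 47.3 and 48.0 CPM in Ly49G+ and 47.6, 107 and 47.9 CPM in Ly49I+ replicates, so that 5 of the 6 libraries lay close together and Ly49I+ replicate 2 alone was high. The log2 difference of -0.40 ± 0.25 (95% interval -0.96 to 0.16, limma adjusted p = 0.387) was -0.013 without that library (95% interval -0.23 to 0.20). Ctsz (gene 64138, chromosome 2, 174427494 to 174439039), which encodes the carboxypeptidase cathepsin Z, had 15.8, 19.4 and 16.9 CPM in Ly49G+ and 20.7, 32.4 and 22.03 CPM in Ly49I+ replicates. The groups did not overlap, and the log2 difference was -0.51 ± 0.17 (95% interval -0.88 to -0.13, limma adjusted p = 0.138, and 0.0158 with the replicate block), and -0.31 without Ly49I+ replicate 2.

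Cst3 (gene 13010, chromosome 2, 148871722 to 148875512) encodes cystatin C, a secreted inhibitor of cysteine cathepsins. It had 8.47, 6.32 and 7.52 CPM in Ly49G+ and 7.81, 16.1 and 16.4 CPM in Ly49I+ replicates, which rest on 284, 228 and 280 reads and on 270, 658 and 640.0 reads. Ly49I+ replicate 1 lay among the Ly49G+ libraries, and Ly49I+ replicates 2 and 3 were level with each other. The log2 difference was -0.79 ± 0.28 (95% interval -1.40 to -0.18, limma adjusted p = 0.154, the block giving 0.0477). It was -0.62 without Ly49I+ replicate 2 and -1.14 without Ly49I+ replicate 1 (limma adjusted p = 0.00787). Cst3 reached 10 CPM in Ly49I+ replicates 2 and 3 alone, which fixed its direction, so these p-values are not support for a difference. Within pairs of the same replicate number the log2 difference of Cst3 was 0.12, -1.35 and -1.13, so pair 1 went against the other 2.

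**Figure D2:**
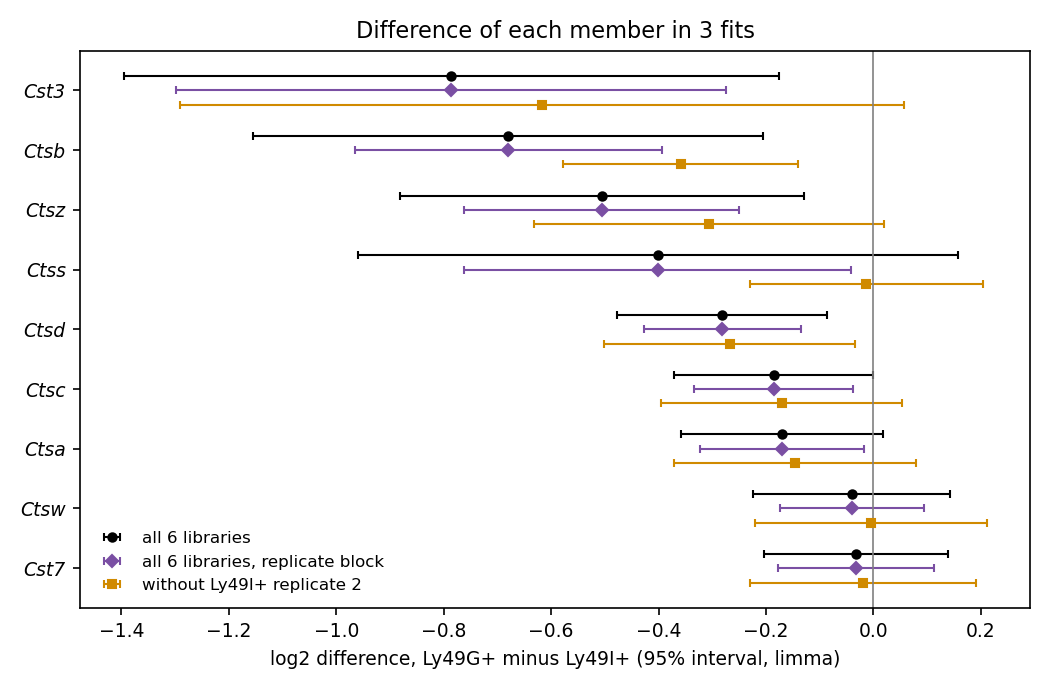
Log2 difference of Ly49G+ minus Ly49I+ for each gene with its 95% interval from limma, from all 6 libraries (black circles), with the replicate number as a block (purple diamonds) and without Ly49I+ replicate 2 (orange squares). Leaving out that library moves Ctss from -0.40 to -0.013 and Ctsb from -0.68 to -0.36, while Ctsd stays near -0.28.

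Markers of monocytes and macrophages moved with part of this pattern. Csf1r, which encodes a receptor of that lineage, had 1.53, 4.47 and 5.94 CPM in Ly49G+ and 41.3, 138 and 31.7 CPM in Ly49I+ replicates 1, 2 and 3. It reached 10 CPM through Ly49I+ libraries alone, so its direction between the groups was fixed. The lysozyme gene Lyz2 had 6.41, 13.2 and 22.6 CPM in Ly49G+ and 98.6, 352 and 72.5 CPM in Ly49I+ replicates. Both were highest in Ly49I+ replicate 2, as were 13 of the 15 measured markers (all but Ly6c2 and Ccr2). The members Ctsb, Ctss and Ctsz, and by a small margin Ctsc and Ctsw, were also highest there. Between Ly49I+ replicates 1 and 3, 13 of the 15 markers were higher in replicate 1, and Apoe and Ly6c2 were higher in replicate 3. All measured members but Ctsc were higher in replicate 3, with Ctss almost level (47.6 and 47.9 CPM in replicates 1 and 3). Summed over the 15 measured markers the level was 1178 to 1246 CPM in Ly49G+ and 1202 to 2404 CPM in Ly49I+ libraries. The chemokine receptor gene Ccr2, which NK cells also express, alone gave 1004 to 1056 CPM of that sum in Ly49G+ and 625 to 718 CPM in Ly49I+ libraries. Of the markers of conventional and plasmacytoid dendritic cells 3 of 16 were measured, of B cells 4 of 13, of neutrophils 0 of 12 and of erythroid cells and platelets 0 of 10. Cd74, which encodes the invariant chain and stands in the B cell list, had 13.2, 16.4 and 42.2 CPM in Ly49G+ and 21.6, 79.6 and 31.5 CPM in Ly49I+ replicates. Igkc was likewise highest in Ly49I+ replicate 2 (76.6 CPM), and neither passed (limma adjusted p = 0.337 and 0.325). The B cell markers Cd22 and Ighm had estimates on the side of Ly49G+, and Cd22 passed (limma adjusted p = 0.0131). Ighm did not pass (0.258), but did with the replicate block (0.0367). In sorted bulk RNA, more cells of another type and more RNA per cell cannot be told apart, and the part of these markers in the differences of Ctsb, Ctss, Ctsz and Cst3 was not tested.

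**Figure D3:**
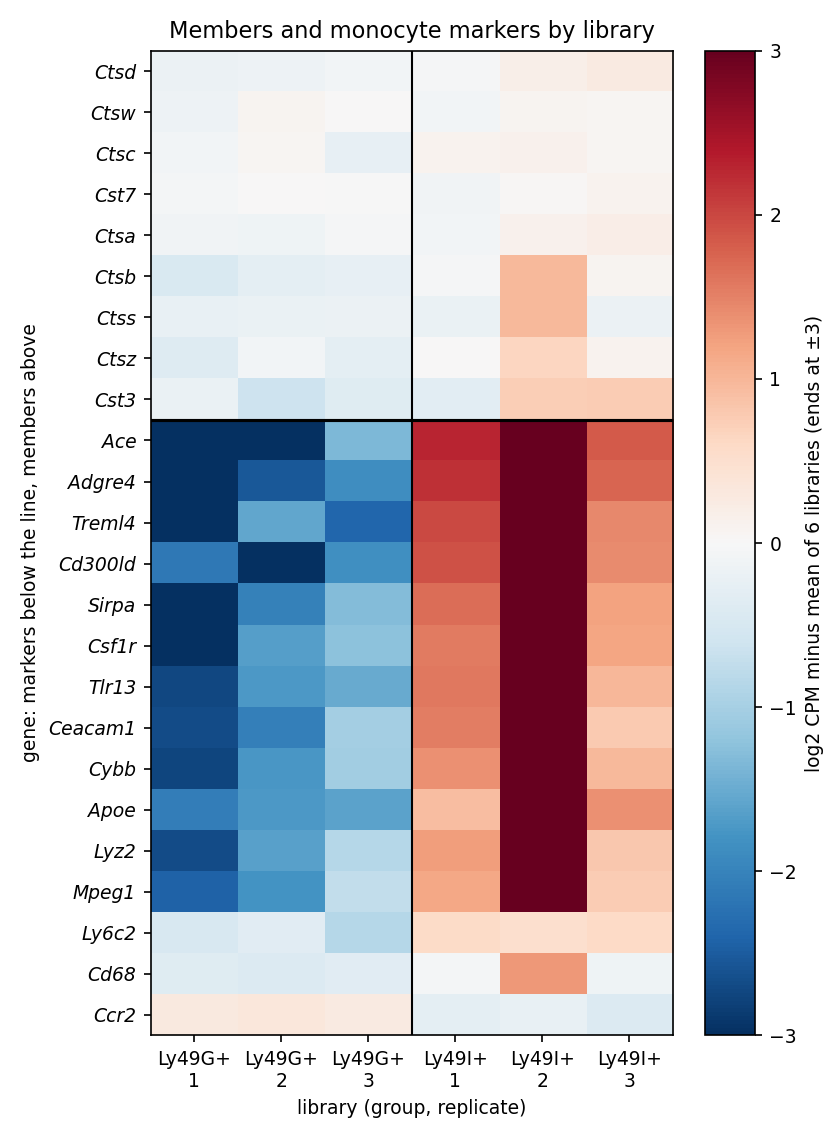
Log2 CPM of the 9 measured genes (above the line) and of the 15 measured monocyte and macrophage markers (below it), each minus its mean over the 6 libraries, with Ly49G+ libraries left and Ly49I+ libraries right and colours ending at 3 in either direction. Ly49I+ replicate 2 is the darkest column for most markers and for Ctsb, Ctss and Ctsz, and Cst3 is as high in Ly49I+ replicate 3.

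Other genes followed Ctsb and Cst3, the members of widest range, closely over the 6 libraries. The likeness is Pearson's r of log2 CPM, given as a description over libraries that share their groups and their totals. Nearest to Ctsb were Myadm (r = 0.990), the glutathione peroxidase gene Gpx1 (0.984) and Ncstn, which encodes the gamma-secretase subunit nicastrin (0.982). Gpx1 had 41.0, 44.6 and 45.3 CPM in Ly49G+ and 48.2, 91.2 and 60.6 CPM in Ly49I+ replicates. Nearest to Cst3 were Shkbp1 (r = 0.993), Unc93b1, which encodes the chaperone of endosomal Toll-like receptors (0.991), and Syngr2 (0.990). Unc93b1 had 33.8, 30.3 and 31.2 CPM in Ly49G+ and 34.5, 49.3 and 50.7 CPM in Ly49I+ replicates, with the step between Ly49I+ replicate 1 and the other 2 seen in Cst3. None of these 6 genes passed the test between the populations, with limma adjusted p from 0.0962 to 0.286.

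The clearest difference among inhibitors of cathepsins lay outside the cystatins, in the Ctla2 genes, which rose in Ly49G+ cells. Ctla2a and Ctla2b encode small proteins that resemble the propeptide of cathepsin L and are known to inhibit cathepsins of that kind. Of 3 measured genes in the list of other inhibitors, those 2 were higher in Ly49G+ and the stefin B gene Cstb did not pass. Ctla2a (gene 13024, chromosome 13, 60934155 to 60936625) had 180.0, 185 and 198 CPM in Ly49G+ against 102, 107 and 104 CPM in Ly49I+ replicates 1, 2 and 3, far apart for the spread within groups (log2 difference 0.85 ± 0.072, limma adjusted p = 0.000221). Ctla2b (gene 13025, chromosome 13, 60895351 to 60897934) had 116, 113 and 114 CPM in Ly49G+ against 79.3, 82.2 and 71.2 CPM in Ly49I+ replicates (log2 difference 0.56 ± 0.079, limma adjusted p = 0.00335). Both kept their call in every alternative, with adjusted p up to 0.00498 for Ctla2a and 0.0332 for Ctla2b. Cstb had 12.4, 16.9 and 15.9 CPM in Ly49G+ and 12.95, 12.9 and 13.9 CPM in Ly49I+ replicates. Of the T cell markers 5 of 10 measured genes were also higher in Ly49G+, with summed levels of 656 to 730 CPM in Ly49G+ and 553 to 604 CPM in Ly49I+ libraries. Of those 5, 3 reached 10 CPM in at least 2 libraries through Ly49G+ alone, which fixed their direction, and Cd3g and Cd28 did so in both groups. The part of these markers in the Ctla2 difference was not tested.

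The bases before the start sites of Ctla2a and Ctla2b are shown because they let the likeness of these near copies be seen. The Ctla2a stretch is chr13:60936626-60936775 and the Ctla2b stretch, which precedes a RefSeq start inside the wider annotated gene given above, is chr13:60897448-60897597, both on the minus strand of GRCm38.p6 from the RefSeq promoter table, 5′ to 3′, with the longest identical run of 36 bases in capitals.
Ctla2a: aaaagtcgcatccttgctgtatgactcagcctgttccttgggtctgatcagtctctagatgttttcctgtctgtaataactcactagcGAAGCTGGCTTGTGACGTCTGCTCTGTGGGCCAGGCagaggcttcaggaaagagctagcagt
Ctla2b: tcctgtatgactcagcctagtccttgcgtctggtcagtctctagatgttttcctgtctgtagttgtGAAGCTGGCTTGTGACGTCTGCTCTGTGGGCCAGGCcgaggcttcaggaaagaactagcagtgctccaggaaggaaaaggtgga
Of the 150 bases in each stretch 128 were aligned, and over those, with gaps left out, the stretches are 93.0% identical. Of the 100-base windows in Ctla2a transcripts 11.0% also occur in transcripts of another gene, and of those in Ctla2b transcripts 58.6% do, so the levels of both, and of Ctla2b in particular, are uncertain. Of the 9 measured cathepsins and cystatins, 8 share none of their windows with another gene, the exception being Ctsd.

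In the wider lysosomal lists 1 gene passed the test without the block, and 13 were lower in Ly49G+ with it. Of 38 measured lysosomal hydrolases 1 was lower in Ly49G+ and 37 did not pass, with a median log2 difference of -0.086 beside -0.016 over all genes. Of the 28 lysosomal membrane and lipid transfer proteins, 14 subunits of the vacuolar ATPase, 20 genes of mannose 6-phosphate tagging and sorting and 16 regulators of lysosomal genes, 0 passed, with list medians of -0.18, -0.072, -0.044 and -0.12. With the replicate block 5 hydrolases, 6 membrane and lipid transfer genes, 1 ATPase subunit and 1 regulator were lower in Ly49G+, where 5.96% of all genes were, and 1 membrane gene, the channel gene Mcoln2, was higher. Of the other cathepsins 2 of 17 listed genes were measured and neither passed. Ctso had 60.7, 52.2 and 48.5 CPM in Ly49G+ and 50.3, 43.7 and 43.3 CPM in Ly49I+ replicates, and Ctse averaged 42.5 ± 5.22 CPM in Ly49G+ and 42.6 ± 2.29 CPM in Ly49I+ libraries (SD, n = 3 each). Their estimates were 0.23 and -0.011 on the log2 scale (limma adjusted p = 0.256 and 0.966).

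**Figure D4:**
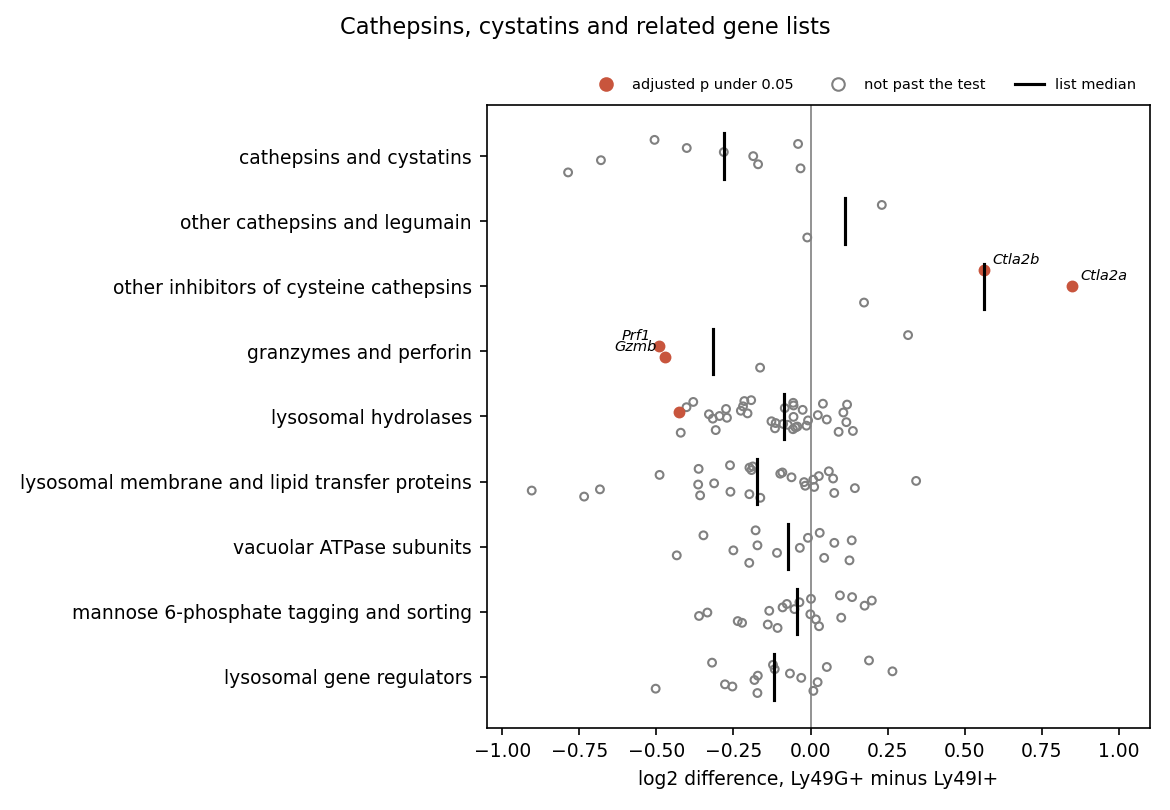
Log2 difference of Ly49G+ minus Ly49I+ for each measured gene of the 9 lists, with filled red points past a limma adjusted p of 0.05, open grey points not past it and a black bar at the list's median. The measured cathepsins and cystatins have a median of -0.28 with no filled point, and Ctla2a (0.85) and Ctla2b (0.56) are the only filled points to the right of 0.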

How the data were processed

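Per the labels' protocols, NK cells were enriched from spleen on a magnetic column, sorted by flow cytometry, and made into stranded libraries from 0.4 µg of total RNA, sequenced as 100-base read pairs. STAR 2.3.0, CASAVA 1.8.2, the mm10 build and limma are named, per the submitters' processing notes. The counter, its strand setting, the annotation and the filter were not given in the sources used here. Therefore Ctsa, Ctsb, Ctsc, Ctsw and Ctsz, which overlap a gene on the opposite strand, may hold reads of that partner. The values the authors deposited are log2 CPM: adding 0.5 to each count and 1 to each library total gave whole reads for 100% of values within 0.001 read. Each total was fitted from the values, so whole reads alone cannot exclude another scaling factor. The fitted totals themselves lay within 4.47e-07 of a whole number, so no such factor was seen.

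Gene numbers were matched to the RefSeq table of GRCm38.p6 for 8429 of 8520 genes. Exonic length is that of the longest coding transcript in GENCODE M21, and levels per kb depend on that choice. The groups were compared on the deposited log2 values with limma 3.58.1 in R 4.3.3, with an intensity trend and two-sided p-values for the difference Ly49G+ minus Ly49I+, adjusted by Benjamini-Hochberg over all 8520 genes. The unit was log2, so no count test was used. The steps were checked on simulated data. Tables were handled with Python 3.11.15 and pandas 2.3.3 and plots drawn with matplotlib 3.10.9.

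Equal replicate numbers, taken from the titles, had deviations from the group means that correlated across genes at 0.371, 0.114 and 0.156 for pairs 1, 2 and 3. The numbers were therefore tried as pairs in an alternative fit, with the replicate number as a block, although the labels state no pairing. Unless another fit is named, p-values are from the fit without the block. Ly49G+ replicate 3 correlated more with Ly49I+ replicate 2 (0.359), and Ly49G+ replicate 2 as much with Ly49I+ replicate 1 (0.115). The labels call the libraries biological replicates, and p-values rest on the spread between them. How many mice fed each library is not stated, so that spread cannot be read as spread between mice. Alternatives were the block, no trend, a robust prior, centring on medians, voom weights, an offset of 5 reads, a minimum mean log2 CPM of 4, and each library left out. Named are the measured members, up to 6 called genes of each list, and 3 genes most like each of the widest-ranging members. Members and lists were chosen with earlier results of these data known. A gene called in the hydrolase list is counted but not reported here.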

Additional observations from a re-analysis of the deposited data

How the results depend on the processing

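The count of called members was 0 of 9 under no intensity trend, the robust prior, centring, voom weights and the offset of 5 reads, where 2.77% to 3.85% of all genes were called. It was 0 of 8 under the minimum mean of 4, which left out Cst3, where 3.12% were. With the replicate block 4 members were called, Ctsb (-0.68), Ctsd (-0.28), Ctsz (-0.51) and Cst3 (-0.79, log2 difference of Ly49G+ minus Ly49I+). The level of 10 CPM fixed the direction of Cst3, and without it the count was 3 of 8. Leaving out one library gave 0 to 4 called members, the 4 being those same genes without Ly49I+ replicate 1 (3 of 8 without Cst3). The log2 differences then ran from -0.87 to -0.36 for Ctsb, -0.36 to -0.21 for Ctsd, -0.63 to -0.31 for Ctsz and -1.14 to -0.60 for Cst3. Those of Ctsw ran from -0.094 to 0.021 (positive without Ly49G+ replicate 1) and of Cst7 from -0.093 to 0.014 (positive without Ly49I+ replicate 3), none past the threshold. Of all genes tested, 306 were called, 155 higher and 151 lower in Ly49G+. The counts were 993, 485 and 508 with the block, 94 to 644, 45 to 297 and 49 to 347 without one library, and 96 lower genes with the minimum mean, which tests fewer genes. The block gave 5 called hydrolases, 7 membrane and lipid transfer genes, 1 ATPase subunit and 1 regulator, leaving out one library gave 0 to 3, 0 to 5, 0 to 2 and 0 to 1, and 0 to 2 for granzymes and perforin. Without the trend there were 1 regulator, 1 granzyme or perforin gene and 0 hydrolases. Voom weights, and the block without Ly49I+ replicate 2, also gave 0 hydrolases. The cause of these changes was not tested.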
